A study of Mus musculus with 32 samples.

Results

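A set of 9 genes of the megakaryocyte and platelet lineage were followed in mouse HSPCs, the haematopoietic stem and progenitor cells that renew the blood. They were listed by name as genes of the lineage, with earlier results of these data known, and all 9 were found among the 45706 genes of the tables: Itga2b, Itgb3, Gp1bb, Gp5, Gp9, Gp6, Pf4, Vwf and Selp. Of these, 8 passed edgeR's filter on low counts, as did 15186 genes in all, and Gp6 did not. RNA sequencing covered 4 groups of 4 biological replicates each. Lethally irradiated C57BL/6J recipients (CD45.2) had received 800000 wild-type marrow cells carrying CD45.1 and CD45.2 beside 200000 CD45.1 partner cells. In the experienced groups the partner cells were homozygous for inducible human MLL-AF9, a leukaemia fusion gene, and for the doxycycline-responsive activator rtTA, and in the naive groups they carried homozygous rtTA alone. The mice went through 5 weeks of doxycycline, begun 6 to 8 weeks after transplantation, and 4 weeks without it, so the experienced mice were studied after a leukaemia had regressed. They then received lipopolysaccharide (LPS), a bacterial cell wall product, or phosphate-buffered saline (PBS) and were killed 24 h later. The groups are called experienced LPS, naive LPS, experienced PBS and naive PBS. In all groups the HSPCs sequenced were the double-positive wild-type donor cells, sorted by surface markers (Lin- cKit+ Sca1+), so they never carried the fusion gene themselves. The sources used here give no age. Whether each replicate came from its own mouse is not stated, and p-values then measure only how these libraries vary, which may be technical.

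Megakaryocytes are large marrow cells that shed platelets, and they arise from HSPCs through progenitors that switch on platelet adhesion receptors and granule proteins before the cells enlarge. Itga2b and Itgb3 encode the alpha and beta chains of the platelet fibrinogen receptor, Gp1bb, Gp5 and Gp9 encode chains of the glycoprotein Ib-IX-V complex that binds von Willebrand factor, and Gp6 encodes a collagen receptor. Pf4, Vwf and Selp encode platelet factor 4, von Willebrand factor and P-selectin, which platelets store in granules. Some stem cells already carry transcripts of this lineage, Vwf and Itga2b among them, and are known to be biased towards platelets.

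The libraries held between 7.72 and 22.3 M expected counts (M, mega), RSEM's estimates of reads per gene. Experienced LPS replicate 4, naive LPS replicate 2 and experienced PBS replicates 3 and 4 resembled their own groups least, with mean correlations of 0.915 to 0.95, and are called the 4 libraries apart. The next lowest was naive LPS replicate 4, at 0.953, so no clear gap sets these libraries off. Mitochondrial genes took 7.30% of counts in experienced LPS replicate 4, 5.94% in experienced PBS replicate 4 and 1.91% to 4.26% elsewhere. Sort markers were present in every group: Kit averaged 142 ± 40.9, 161 ± 45.2, 191 ± 21.0 and 203 ± 25.5 TPM (transcripts scaled to a fixed total, SD, n = 4) in experienced LPS, naive LPS, experienced PBS and naive PBS. Ly6a, which encodes Sca1, averaged 172 ± 33.0, 185 ± 64.0, 53.7 ± 25.2 and 60.4 ± 11.5 TPM in the same order, so the marker of the sort itself was higher after LPS (log2 1.87 in experienced and 1.72 in naive mice, edgeR adjusted p = 0.00207 and 0.00237).

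Levels are given in TPM, which divide by gene length and so allow genes to be compared, while differences between groups are given in CPM, counts scaled to a fixed library total. Itga2b had the highest mean in every group, at 244 ± 33.7, 237 ± 16.3, 86.2 ± 15.3 and 99.8 ± 31.1 TPM (SD, n = 4) in experienced LPS, naive LPS, experienced PBS and naive PBS, above 97.0% of the tested genes after LPS and 91.1% after PBS in experienced mice. After PBS its libraries overlapped those of Selp in experienced mice and those of Pf4 in naive mice, and Pf4 and Selp overlapped each other in both. After LPS every Itga2b library lay above every library of the other 8 genes.

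Below these came a middle group. Vwf averaged 17.6 ± 4.31 TPM in experienced LPS, 14.4 ± 3.87 in naive LPS, 13.5 ± 5.48 in experienced PBS and 14.5 ± 5.92 in naive PBS. After PBS the order was Vwf, Gp9, Gp5 and Itgb3, and each overlapped the next in TPM. After LPS the mean of Itgb3 stood above those of Vwf, Gp5 and Gp9, at 32.3 ± 10.95 TPM in experienced and 31.9 ± 13.5 TPM in naive mice. Gp1bb was the lowest of the 8 tested genes in every group, at 6.47 ± 0.977 and 4.49 ± 1.02 TPM in experienced and naive LPS libraries and 1.74 ± 0.269 and 2.72 ± 1.07 TPM in experienced and naive PBS libraries. Gp6 had 1 count in experienced LPS replicate 1 and 0 in the other 15 libraries. A count of 0 allows up to 3 counts, which is 0.135 to 0.389 CPM depending on the library and covers counting error only. Gp6 was thus at or under that limit in the 15 libraries with a count of 0. The limit does not apply to experienced LPS replicate 1, and a single count there is too little to give a level.

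**Figure D1:**
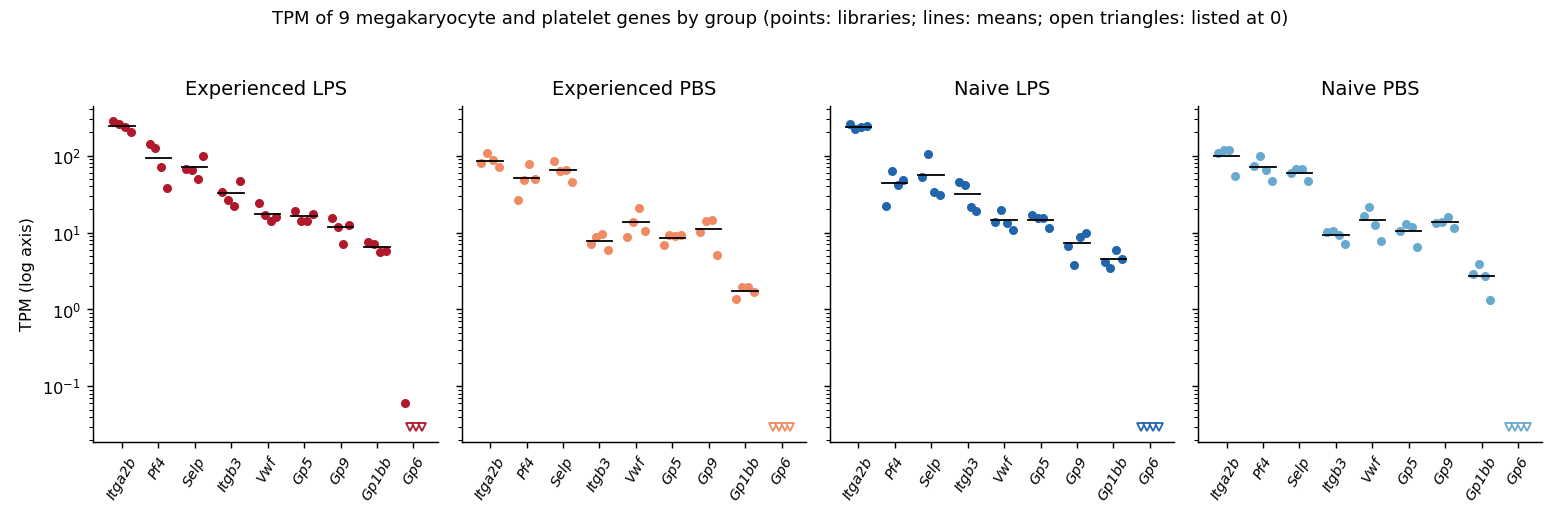
TPM of the 9 genes on a log axis, 1 panel per group, with 1 point per library, black lines for group means and open triangles for values listed at 0. Itga2b leads in every panel, and the mean of Itgb3 stands above those of Vwf, Gp5 and Gp9 in the LPS panels but below them in the PBS panels.

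Promoters were compared because Itga2b, Gp1bb and Gp5 were called higher after LPS in both kinds of mice, as described below, while Gp9, whose product sits in the same receptor as those of Gp1bb and Gp5, was not. RefSeq promoters on build GRCm38.p6, 250 bases before to 50 bases after the start of the gene, were found for 7 of the 9 genes, Itgb3 and Vwf not among them. Capitals mark 2 kinds of motif on either strand. GATA motifs were read as AGATAA in one form and AGATAG in another, and with T as the first letter as TGATAA in one form and TGATAG in another. ETS motifs were read as AGGAAG in one form and CGGAAG in another. The Itga2b promoter (chr11:102469834-102470133, minus strand), the Gp1bb promoter (chr16:18622354-18622653, minus strand), the Gp5 promoter (chr16:30310732-30311031, minus strand) and the Gp9 promoter (chr6:87777820-87778119, plus strand) read as follows, 5′ to 3′ along the gene.
Itga2b: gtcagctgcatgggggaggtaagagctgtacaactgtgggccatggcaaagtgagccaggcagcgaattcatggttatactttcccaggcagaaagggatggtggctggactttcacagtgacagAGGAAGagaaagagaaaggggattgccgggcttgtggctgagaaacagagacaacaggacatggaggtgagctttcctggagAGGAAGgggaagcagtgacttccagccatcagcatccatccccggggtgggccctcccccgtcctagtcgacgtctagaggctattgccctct
Gp1bb: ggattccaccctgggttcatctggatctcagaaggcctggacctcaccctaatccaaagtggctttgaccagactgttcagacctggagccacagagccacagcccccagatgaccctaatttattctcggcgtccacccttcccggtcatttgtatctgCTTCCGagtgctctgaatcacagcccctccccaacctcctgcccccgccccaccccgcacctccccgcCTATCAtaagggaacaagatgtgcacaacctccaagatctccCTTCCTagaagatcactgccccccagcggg
Gp5: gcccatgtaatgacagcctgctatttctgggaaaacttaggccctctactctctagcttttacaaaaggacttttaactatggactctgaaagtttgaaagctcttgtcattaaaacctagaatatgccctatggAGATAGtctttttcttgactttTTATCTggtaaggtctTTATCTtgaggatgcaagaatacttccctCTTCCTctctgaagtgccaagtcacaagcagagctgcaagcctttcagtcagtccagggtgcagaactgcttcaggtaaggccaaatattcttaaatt
Gp9: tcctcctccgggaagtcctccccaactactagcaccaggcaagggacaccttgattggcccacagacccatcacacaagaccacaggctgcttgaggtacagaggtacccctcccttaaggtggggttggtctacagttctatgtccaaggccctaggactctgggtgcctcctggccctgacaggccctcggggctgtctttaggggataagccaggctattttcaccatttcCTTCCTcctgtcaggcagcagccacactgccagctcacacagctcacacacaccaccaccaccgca
Gp5 held 3 GATA motifs, at -115, -93 and -77 (first base of the match, with the first transcribed base as 0), and 1 ETS motif at -48. Gp1bb held 1 GATA motif at -22 and 2 ETS motifs, at -90 and 20, Itga2b held 2 ETS motifs, at -125 and -43, and Gp9 held 1 ETS motif at -16. None of these matches overlapped another. RefSeq's start of Itga2b lies 239 bases inside the gene as given below from GENCODE vM21, so the Itga2b positions are relative to RefSeq's start only. Most of the Itga2b window thus lies inside that gene, and sequence before the GENCODE start was hardly read for motifs. For Gp1bb, Gp5 and Gp9 both starts lie within 2 bases of each other. Promoters not printed here held such motifs too. Pf4 held 1 ETS motif at -9 and 1 GATA motif at 36, Selp held 2 ETS motifs, at -64 and 19, and Gp6 held 1 GATA motif at -144. Pf4 and Selp were not called after LPS and Gp6 was not tested, so the motifs did not separate called from other genes. Of the 7 promoters, 4 held a GATA motif, 6 an ETS motif and 3 both, against 29.8%, 46.5% and 12.6% of 32851 promoters of the same length. GATA1 and GATA2 and the ETS factors FLI1 and ETV6 act in megakaryocytes, but a match is only a run of letters, and binding was not measured.

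After LPS, transcripts of both fibrinogen receptor chains and of Gp1bb and Gp5 were higher in experienced and in naive mice, and those of the other 4 tested genes did not pass the test in either. So 4 of 8 members were called higher in experienced mice, where 4.52% of all tested genes were, and 4 of 8 in naive mice, where 9.81% were. None of the 8 was called lower, against 8.26% of tested genes in experienced and 11.9% in naive mice. Among members at an unadjusted edgeR p below 0.05 there were 6 in experienced mice, where 27.9% of tested genes were, and 5 in naive mice, where 35.4% were. DESeq2 called 6 members higher in experienced mice, where it called 6.34% of its tested genes higher, and 4 in naive mice, where it called 10.5%. The median log2 fold change of the members was 1.07 in experienced mice, against -0.02 over all tested genes, and 0.29 in naive mice, against 0.02. RNA of sorted cells was measured in bulk, so fewer cells of a type and less RNA per cell cannot be told apart.

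**Figure D2:**
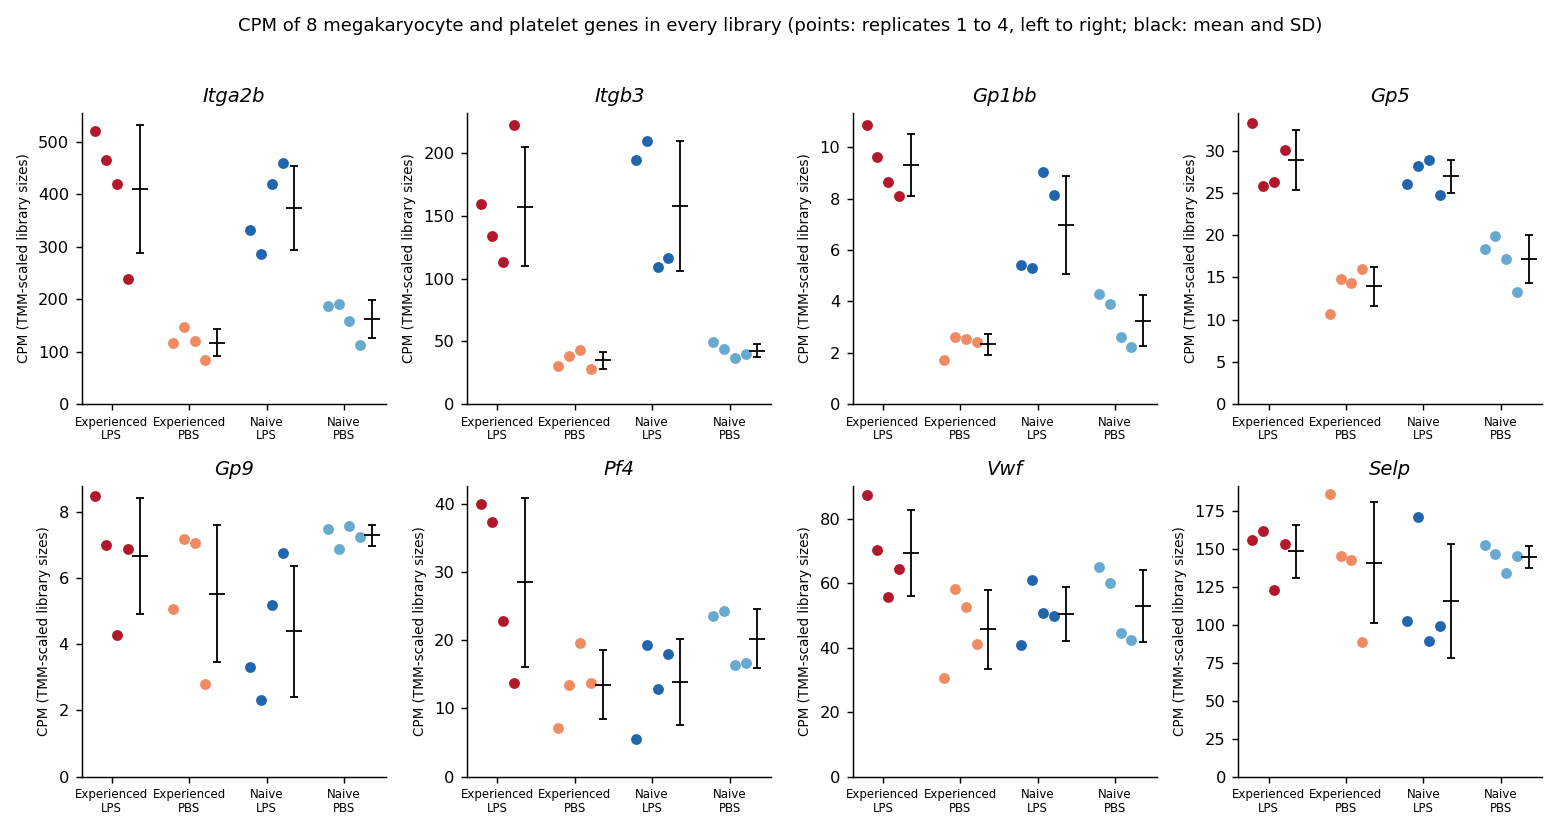
CPM of the 8 tested genes in each library, with 1 panel per gene, groups along the axis as experienced LPS, experienced PBS, naive LPS and naive PBS, points for replicates 1 to 4 and black bars for the mean and SD. For Itga2b, Itgb3, Gp1bb and Gp5 every LPS library lies above every PBS library of the same kind of mouse, and for the others the groups overlap, except that Gp9 of naive LPS lies below naive PBS.

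Itga2b, on chromosome 11 (GRCm38 102453297 to 102470122, minus strand), encodes integrin alpha IIb, also known as CD41 and one of the earliest surface markers of the lineage. In experienced mice it had 520.3, 465, 420.2 and 238 CPM after LPS, against 117, 146, 119.7 and 83.5 CPM after PBS. Naive mice had 332, 286, 419 and 460.3 CPM after LPS, against 187, 190.4, 159 and 113 CPM after PBS. Every LPS library stood above every PBS library in both, and the lowest LPS value was that of experienced LPS replicate 4, one of the libraries apart. The log2 fold change was 1.82 (SE 0.25, edgeR adjusted p = 0.000265) in experienced mice, a 3.53-fold rise, and 1.21 (SE 0.24, edgeR adjusted p = 0.00281) in naive mice, a 2.31-fold rise. Without the 4 libraries apart these were 1.86 and 1.34 (edgeR adjusted p = 6.68e-05 and 5.97e-05).

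Itgb3, also on chromosome 11 (104608000 to 104670476, plus strand), encodes integrin beta 3, which pairs with integrin alpha IIb on platelets and with integrin alpha V on other cells. It had 159.7, 134, 113 and 223 CPM in experienced LPS, against 30.3, 38.5, 42.7 and 28.1 CPM in experienced PBS. Itgb3 had 195, 210.3, 109 and 117 CPM in naive LPS, against 49.3, 44.1, 37.0 and 40.2 CPM in naive PBS. The groups did not overlap in either kind of mouse, and the log2 fold change was 2.17 (SE 0.24, edgeR adjusted p = 5.95e-05) in experienced and 1.89 (SE 0.24, edgeR adjusted p = 8.96e-05) in naive mice. Its 3 highest values came from experienced LPS replicate 4 and naive LPS replicates 1 and 2. In those libraries RSEM's mean transcript length of Actb, the beta-actin gene, was 924, 1224 and 1028 bases, against 1287 bases in experienced PBS replicate 4 and 1731 to 1867 bases in the other 12. Its part in the Itgb3 values was not tested. Without the 4 libraries apart, Itgb3 was still higher, by 2.00 in experienced and 1.74 in naive mice (edgeR adjusted p = 6.71e-05 and 1.33e-05). The ratio of Itga2b to Itgb3 counts, which is not per length, was 2.88 ± 1.22 in experienced LPS, against 3.36 ± 0.547 in experienced PBS, and 2.71 ± 1.37 in naive LPS, against 3.81 ± 0.705 in naive PBS (SD, n = 4). The libraries of LPS and PBS overlapped in this ratio in both kinds of mouse. It ranged from 1.07 to 3.71 in experienced LPS, against 2.80 to 3.86 in experienced PBS. The range was 1.36 to 3.94 in naive LPS, against 2.81 to 4.32 in naive PBS. The lowest values were those of experienced LPS replicate 4 and naive LPS replicate 2, both with a short Actb length. Its part in the lower LPS means was not tested.

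**Figure D3:**
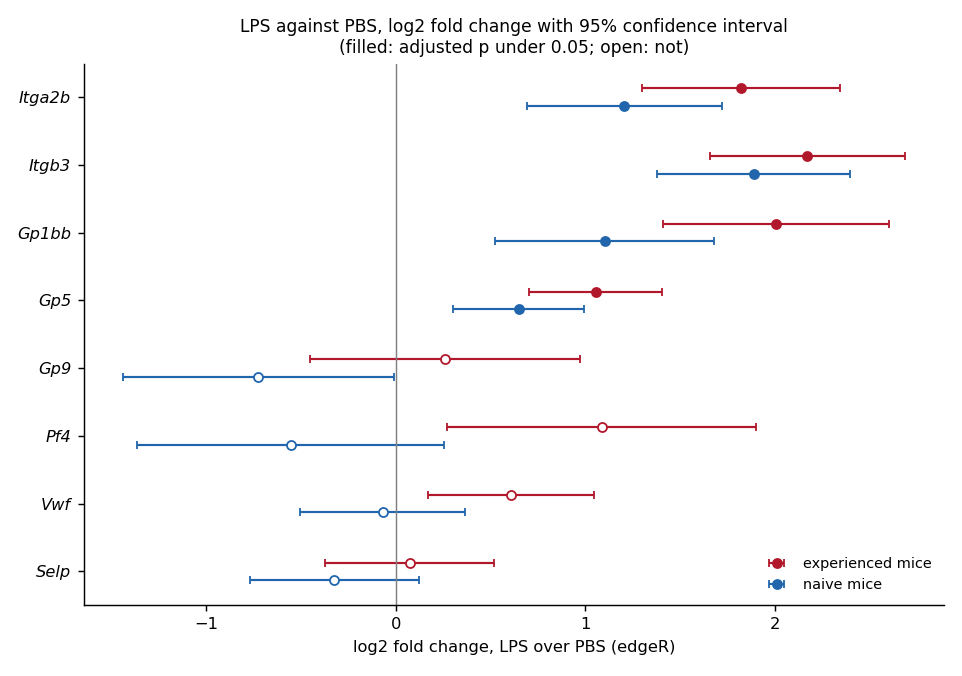
Log2 fold changes of LPS over PBS for the 8 tested genes from edgeR, experienced mice above naive mice for each gene, with 95% confidence intervals and filled points at an adjusted p under 0.05. Itga2b, Itgb3, Gp1bb and Gp5 are filled and above 0 in both, while Gp9, Pf4, Vwf and Selp are open.

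Among the chains of the glycoprotein Ib-IX-V complex, Gp1bb and Gp5 rose, and Gp9 did not pass the test. Gp1bb, on chromosome 16 (18620317 to 18622403, minus strand), encodes glycoprotein Ib beta, which is linked to the ligand-binding alpha chain. It had 10.9, 9.61, 8.63 and 8.11 CPM in experienced LPS, against 1.73, 2.60, 2.53 and 2.42 CPM in experienced PBS. Gp1bb had 5.40, 5.29, 9.03 and 8.16 CPM in naive LPS, against 4.29, 3.88, 2.59 and 2.22 CPM in naive PBS. No LPS value reached down to a PBS value, and the log2 fold change was 2.00 (SE 0.28, edgeR adjusted p = 0.000341) in experienced and 1.10 (SE 0.27, edgeR adjusted p = 0.00988) in naive mice. Gp1bb overlaps Sept5, which encodes a septin, on the same strand, and RSEM divides reads between overlapping genes, so the Gp1bb values are uncertain. The gene model Gm49601 also overlaps it on that strand, but was not among the genes quantified. Sept5 itself stood at 0.858 ± 0.0785 TPM in experienced LPS, against 0.945 ± 0.285 TPM in experienced PBS, and at 0.847 ± 0.554 TPM in naive LPS, against 0.963 ± 0.274 TPM in naive PBS (SD, n = 4), with log2 fold changes of -0.02 and -0.18 (edgeR adjusted p = 0.984 and 0.817).

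Gp5, also on chromosome 16 (30307685 to 30310779, minus strand), encodes glycoprotein V, a chain that thrombin cleaves. Experienced mice had 33.4, 25.9, 26.3 and 30.1 CPM after LPS, against 10.6, 14.8, 14.3 and 15.99 CPM after PBS. Naive mice had 26.1, 28.3, 28.9 and 24.7 CPM after LPS, against 18.4, 19.9, 17.2 and 13.3 CPM after PBS. Again no LPS library overlapped a PBS library, and the log2 fold changes were 1.05 (SE 0.17, edgeR adjusted p = 0.000699) in experienced and 0.65 (SE 0.16, edgeR adjusted p = 0.0109) in naive mice. Groups without overlap in this direction, as seen for Itga2b, Itgb3, Gp1bb and Gp5, occurred in 6.45% of tested genes in experienced and 12.5% in naive mice. When limma was fitted to log2(TPM + 1) in place of counts, Gp1bb and Gp5 lost their calls in naive mice (limma adjusted p = 0.0885 and 0.139), although not in experienced mice. On that scale the median of all genes moved to -0.13 in experienced and -0.09 in naive mice, and 15.7% and 19.9% of all calls were higher, against 35.4% and 45.2% in the edgeR fit. With upper-quartile scaling, 35.0% of the calls in naive mice were higher.

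Gp9, on chromosome 6 (87778072 to 87779768, plus strand), encodes glycoprotein IX, which the complex needs to reach the platelet surface. It had 8.49, 7.01, 4.29 and 6.87 CPM in experienced LPS, against 5.07, 7.18, 7.07 and 2.79 CPM in experienced PBS, and these overlapped. In naive mice it had 3.30, 2.32, 5.17 and 6.75 CPM after LPS, against 7.47, 6.88, 7.59 and 7.25 CPM after PBS, so every LPS library was below every PBS library, as in 16.8% of tested genes. The log2 fold change was 0.26 (SE 0.34, edgeR adjusted p = 0.668) in experienced and -0.72 (SE 0.34, edgeR adjusted p = 0.136) in naive mice, with 95% confidence intervals of -0.45 to 0.97 and -1.44 to -0.01, and neither passed. The ratio of Gp1bb to Gp9 counts was 1.46 ± 0.375 in experienced LPS, against 0.482 ± 0.257 in experienced PBS, and 1.72 ± 0.440 in naive LPS, against 0.447 ± 0.143 in naive PBS (SD, n = 4). The libraries did not overlap in this ratio between LPS and PBS in either kind of mouse, which is given as a description with no test. The gene of the alpha chain, Gp1ba, averaged 6.62 ± 2.76 TPM in experienced LPS, against 3.79 ± 1.40 TPM in experienced PBS, and 7.15 ± 4.30 TPM in naive LPS, against 3.85 ± 0.516 TPM in naive PBS. Its log2 fold changes, 0.93 (SE 0.37, edgeR adjusted p = 0.111) and 0.92 (SE 0.37, edgeR adjusted p = 0.0852), did not pass. The experienced value passed without the 4 libraries apart (edgeR adjusted p = 0.0355) and without experienced PBS replicate 4 (edgeR adjusted p = 0.0491) and the naive one without naive LPS replicate 4 (edgeR adjusted p = 0.0298).

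The granule genes did not pass the test in either kind of mouse. Pf4, on chromosome 5 (90772435 to 90773383, plus strand), encodes a chemokine released from platelet alpha granules, known also to act on stem cell quiescence. In experienced mice it had 40.0, 37.4, 22.8 and 13.7 CPM after LPS, against 7.11, 13.5, 19.5 and 13.8 CPM after PBS. The first 3 LPS libraries were above all PBS libraries, and replicate 4, one of the libraries apart, was within their range. Naive mice had 5.45, 19.2, 12.8 and 18.0 CPM after LPS, against 23.6, 24.3, 16.3 and 16.6 CPM after PBS, with overlap. The log2 fold change was 1.09 (SE 0.39, edgeR adjusted p = 0.074) in experienced mice and -0.55 (SE 0.38, edgeR adjusted p = 0.323) in naive mice. The experienced value passed with DESeq2 (1.10, adjusted p = 0.0307), without experienced LPS replicate 4 (1.33, edgeR adjusted p = 0.0185), without naive LPS replicate 1 (edgeR adjusted p = 0.0423) and without the 4 libraries apart, where it was 1.71 (edgeR adjusted p = 0.0077).

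Vwf, on chromosome 6 (125546774 to 125686679, plus strand), encodes the adhesive protein that the glycoprotein Ib-IX-V complex binds, and is made by endothelial cells as well as megakaryocytes. It had 87.3, 70.3, 55.8 and 64.5 CPM in experienced LPS, against 30.5, 58.2, 52.6 and 41.1 CPM in experienced PBS. Vwf had 40.7, 61.1, 50.7 and 49.6 CPM in naive LPS, against 64.9, 59.98, 44.5 and 42.3 CPM in naive PBS. Only experienced LPS replicate 3 fell within the range of its PBS group in experienced mice, while in naive mice the groups overlapped. The log2 fold change was 0.61 (SE 0.21, edgeR adjusted p = 0.0641) in experienced and -0.07 (SE 0.21, edgeR adjusted p = 0.848) in naive mice. The experienced value passed with DESeq2 (0.63, adjusted p = 0.0376), with the mitochondrial percentage as a covariate (0.61, edgeR adjusted p = 0.0499), without experienced LPS replicate 4 (0.66, edgeR adjusted p = 0.0447) and without naive LPS replicate 2 (0.63, edgeR adjusted p = 0.0451). Of 12 endothelial marker genes, 7 averaged under 1 TPM in both LPS groups and 5 in both PBS groups, and Sele was at 0 in every library. Cdh5, which encodes endothelial cadherin, averaged 0.0550 ± 0.0614, 0.193 ± 0.123, 0.10 ± 0.0416 and 0.0400 ± 0.0392 TPM in experienced LPS, naive LPS, experienced PBS and naive PBS. The summed level of that list was 69.6 to 89.8 TPM in experienced LPS, against 84.7 to 177 TPM in experienced PBS. The sum was 49.2 to 75.0 TPM in naive LPS, against 147 to 197 TPM in naive PBS. Its part in the Vwf values was not tested.

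Selp, on chromosome 1 (164115264 to 164150026, plus strand), encodes P-selectin, which moves from granules to the surface of activated platelets and endothelium and binds the leukocyte ligand encoded by Selplg. It had 156, 162, 123 and 153 CPM in experienced LPS, against 186, 146, 143 and 89.1 CPM in experienced PBS, with overlap. It had 103, 171, 89.6 and 99.4 CPM in naive LPS, against 153, 147, 135 and 145 CPM in naive PBS. In naive mice 3 of the LPS libraries were below all PBS libraries, and replicate 2 was above them. The log2 fold change was 0.07 (SE 0.21, edgeR adjusted p = 0.855) in experienced and -0.33 (SE 0.21, edgeR adjusted p = 0.29) in naive mice. Without naive LPS replicate 2 the naive value was -0.56 (edgeR adjusted p = 0.0475), and without the 4 libraries apart -0.55 (edgeR adjusted p = 0.00212). In TPM that replicate stood at 105, and experienced LPS replicate 4 at 99.95, where RSEM's mean Selp transcript length was 1958 and 1981 bases, against 2454 to 3274 bases in the other libraries. The antisense genes Gm16587 and Gm16548 overlap Selp, and without a stated strand setting their reads cannot be told apart from those of Selp.

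Between experienced and naive mice none of the 8 genes passed the test, after PBS, after LPS or averaged over both, nor did the difference between their LPS responses. The edgeR fit called 0% of all tested genes in each of these 4 comparisons, 0 of 15186, while DESeq2 called 2 genes after PBS, 2 after LPS, 1 in the difference of responses and 0 in the average, none of them members. At an unadjusted edgeR p below 0.05 there were 0 members after PBS, where 2.97% of tested genes were, 2 after LPS, where 3.23% were, and 3 in the difference of responses, where 4.58% were, and 0 in the average, where 1.94% were. After PBS the log2 differences of experienced over naive mice were negative for all 8, between -0.59 for Pf4 and -0.04 for Selp, with a median of -0.35 against 0.00 over all tested genes. After LPS 7 of 8 were positive, with -0.00 for Itgb3 as the exception and a median of 0.39 against -0.02. Every library range overlapped between experienced and naive mice in both conditions.

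Pf4 differed most. Experienced LPS libraries averaged 28.5 ± 12.4 CPM and naive LPS libraries 13.9 ± 6.26 CPM (mean ± SD over 4 libraries), a log2 difference of 1.05 (SE 0.39, 95% confidence interval 0.24 to 1.87, edgeR adjusted p = 1). Experienced PBS libraries averaged 13.5 ± 5.08 CPM and naive PBS libraries 20.2 ± 4.33 CPM, a log2 difference of -0.59 (SE 0.38, edgeR adjusted p = 0.988). The difference between both LPS responses, experienced minus naive, was therefore 1.64 on the log2 scale (SE 0.54, 95% confidence interval 0.49 to 2.79), and did not pass over all genes (edgeR adjusted p = 0.884). Gp1bb and Vwf were the other 2 genes at an unadjusted p below 0.05 in this comparison, at 0.90 (SE 0.39, edgeR adjusted p = 0.884) and 0.68 (SE 0.29, edgeR adjusted p = 0.884), and Vwf was the other one after LPS, at 0.46 (SE 0.21, edgeR adjusted p = 1). Itgb3 differed least between the responses, by 0.28 (95% confidence interval -0.42 to 0.98), and Itga2b by 0.61 (-0.10 to 1.33). These intervals are wide, so a difference in response of these genes up to the upper bounds is not shown to be absent. Without the 4 libraries apart, Selp passed between experienced and naive mice after LPS, at 0.60 (edgeR adjusted p = 0.0315), where 70 of 15840 genes were called higher and 153 lower, and Pf4 stood at 1.48 (edgeR adjusted p = 0.0646).

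**Figure D4:**
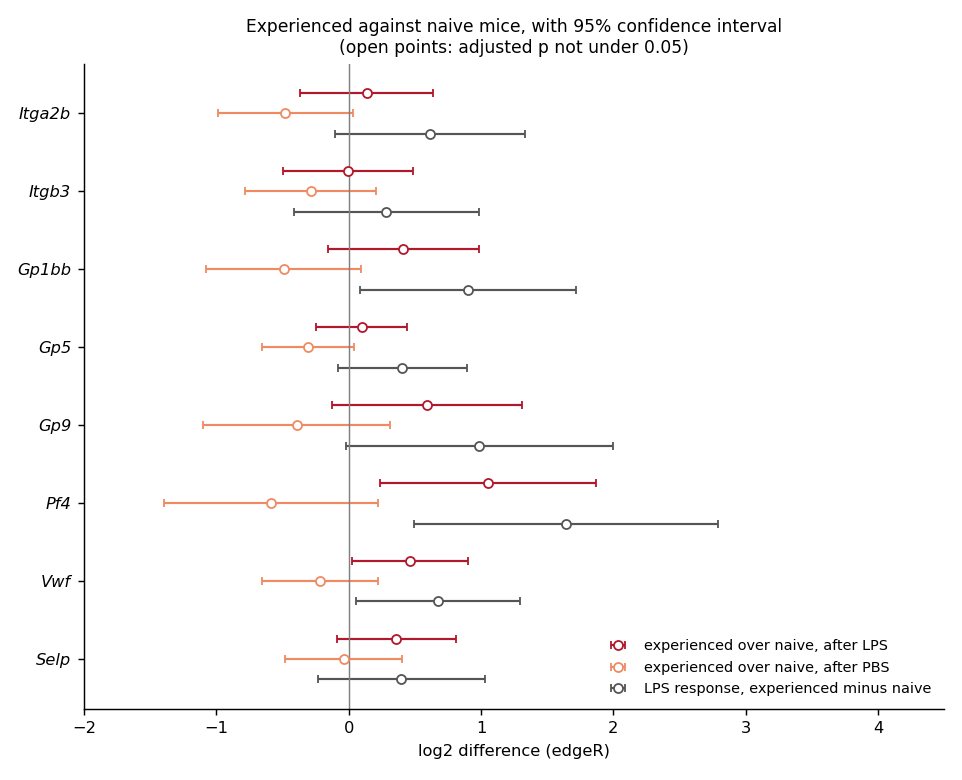
Log2 differences with 95% confidence intervals from edgeR for the 8 tested genes, showing, from top to bottom for each gene, experienced over naive mice after LPS, the same after PBS, and the difference between both LPS responses (experienced minus naive). All points are open, meaning none passed an adjusted p of 0.05, and the PBS points lie at or below 0 while the difference of responses is largest for Pf4.

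How the genes moved together over the 16 libraries was described with Pearson's r of log2 CPM, without a test, since libraries share their group and depth. Itga2b and Gp1bb had r = 0.94, and 0.66 when each group's mean was removed. Gp1bb and Gp5 had r = 0.94 and 0.62 with group means removed, and Pf4 and Vwf had 0.80 and 0.74. The integrin chains had r = 0.83 over all libraries and -0.35 with group means removed. Experienced LPS replicate 4 and naive LPS replicates 1 and 2 had the lowest Itga2b CPM and the highest Itgb3 CPM of the LPS libraries. Their Actb length was short, as given above, and its part in the r of -0.35 was not tested. Like patterns were sought among tested genes with a symbol. Gene models, pseudogenes and mitochondrial, immunoglobulin and T cell receptor genes were left out. The pattern most like that of Itga2b was that of Qsox2 (0.96), then Ccl5 (0.96) and Gp1bb (0.94). Itgb3 was most like Syde2 (0.97), Homer2 (0.96) and Myo10 (0.96), Gp1bb like Gp5 (0.94), Itga2b (0.94) and Reep2 (0.94), and Gp5 like Reep2 (0.96), Gp1bb (0.94) and Gadd45g (0.94). Many genes changed with LPS, so a higher r for the genes called after LPS is no separate result. The 4 genes that did not pass had looser neighbours. These were Ctnnbip1 (0.84), Panx1 (0.82) and Tusc3 (0.82) for Gp9, Hist1h3g (0.85), Hmgn2 (0.81) and Vwf (0.80) for Pf4, Gatb (0.82), Pf4 (0.80) and Mrvi1 (0.79) for Vwf, and Pwwp2b (0.87), Ttc7b (0.85) and Klhl6 (0.85) for Selp.

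Several genes that mark later stages were low. Of 8 markers of late megakaryocytes and platelets, 4 averaged under 1 TPM in experienced LPS, 6 in experienced PBS, 6 in naive LPS and 5 in naive PBS, and none was at 0 in a whole group. Their summed level was 12.2 to 22.8 TPM in experienced LPS, against 6.79 to 12.3 TPM in experienced PBS. The sum was 9.53 to 20.3 TPM in naive LPS, against 10.2 to 13.3 TPM in naive PBS. Ppbp, which encodes an abundant platelet chemokine, averaged 1.01 ± 0.535 TPM in experienced LPS, against 0.863 ± 0.590 TPM in experienced PBS, and 0.547 ± 0.255 TPM in naive LPS, against 1.01 ± 0.275 TPM in naive PBS. Tubb1, another gene of that list, for the platelet beta tubulin, was not above 1.02 TPM in any library. Clec1b, which encodes a platelet receptor of podoplanin, averaged 3.06 ± 3.44 TPM in experienced LPS, against 0.295 ± 0.177 TPM in experienced PBS, with values from 0.38 to 8.09 TPM in the LPS libraries (log2 1.44, SE 0.76, edgeR adjusted p = 0.229). Leaving out 1 library at a time gave log2 values of 0.60, without experienced LPS replicate 4, to 1.93. Without the 4 libraries apart the value was 1.74 (edgeR adjusted p = 0.0726). In naive mice Clec1b averaged 0.610 ± 0.734 TPM after LPS, against 0.522 ± 0.175 TPM after PBS, with a log2 fold change of -0.11 (SE 0.77, edgeR adjusted p = 0.938). Gp1ba, also on that list and with levels given above, had a higher mean than Ppbp, Tubb1 and Clec1b in every group. Marker sums of other lineages are given beside the late megakaryocyte sums, and not all were higher after LPS. Neutrophil markers summed to 4.09 to 7.28 TPM in naive LPS, against 9.96 to 26.65 TPM in naive PBS. B cell markers summed to 13.7 to 16.7 TPM in naive LPS, against 21.6 to 25.45 TPM in naive PBS. Both sums overlapped between LPS and PBS in experienced mice. Monocyte and macrophage, T and NK cell and marrow stroma sums overlapped in both kinds of mouse. Mast cell and basophil markers, 7 genes of which 1 or 2 averaged under 1 TPM and none was at 0, summed to 164 to 309 TPM in experienced LPS, against 35.6 to 117 TPM in experienced PBS. The sum was 219.6 to 476 TPM in naive LPS, against 32.2 to 62.3 TPM in naive PBS. The 8 erythroid markers summed to 174 to 920.4 TPM in experienced LPS, against 44.3 to 1316 TPM in experienced PBS. The sum was 294 to 950.4 TPM in naive LPS, against 18.2 to 114 TPM in naive PBS. Of the 8, 4, 1, 4 and 2 averaged under 1 TPM in that order of groups, and Hba-a1 was at 0 in naive PBS. The part of any of these cells in the change of Itga2b, Itgb3, Gp1bb and Gp5 was not tested.

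In the wider megakaryocyte programme, calls went in both directions. In 7 lists of related genes, 78 of 86 genes found were tested, and 9 were higher and 2 lower after LPS in experienced mice, against 9 higher and 19 lower in naive mice, with medians of -0.00 and -0.08. Over all tested genes 4.52% were higher and 8.26% lower in experienced mice, and 9.81% were higher and 11.9% lower in naive mice. Leaving out 1 library at a time gave 3 to 11 higher and 1 to 6 lower in experienced mice and 6 to 14 higher and 14 to 22 lower in naive mice. Without the 4 libraries apart the counts were 18 higher and 16 lower in experienced mice and 14 higher and 25 lower in naive mice. Over all genes 2518 were higher and 2488 lower in experienced mice and 2759 higher and 2674 lower in naive mice. In the test of the difference between both LPS responses, edgeR called 0 of the 78 genes, so the lists are not shown to differ between experienced and naive mice.

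**Figure D5:**
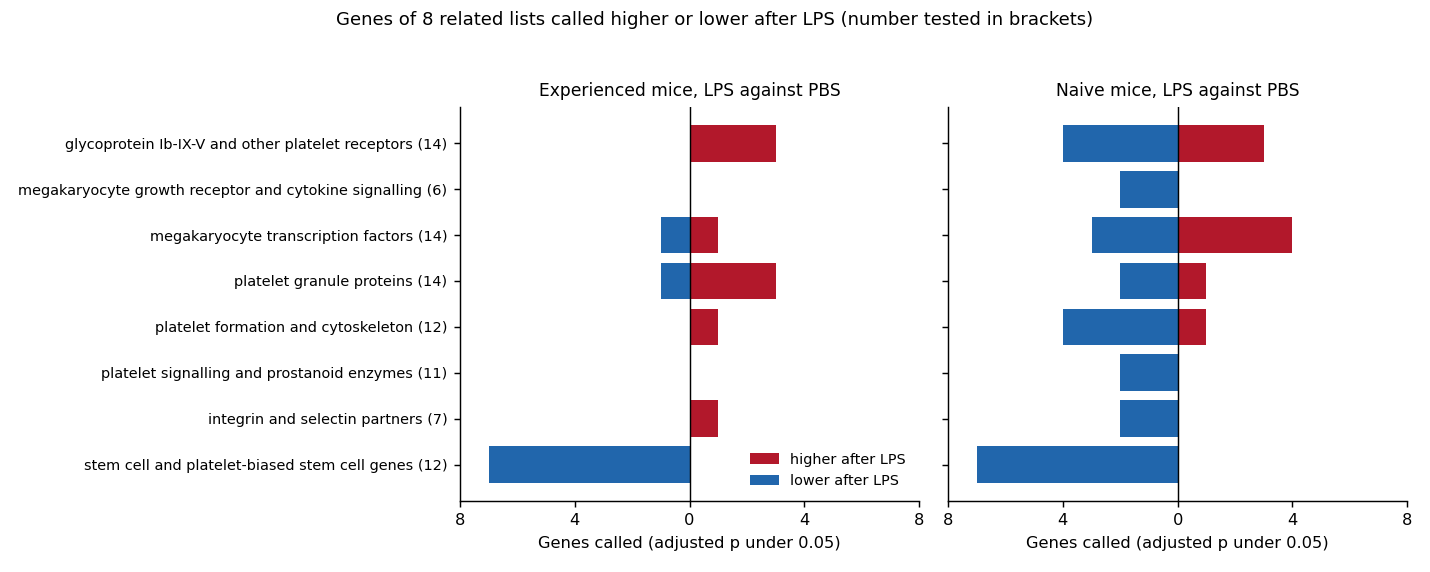
Number of genes called higher (right of 0) or lower (left of 0) after LPS at an edgeR adjusted p under 0.05 in 8 lists, with experienced mice in the left panel, naive mice in the right panel and the number tested in brackets. The stem cell list has 7 lower and 0 higher in both panels, and the pathway lists have 9 higher and 2 lower in experienced mice and 9 higher and 19 lower in naive mice.

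Of 14 tested platelet receptor genes other than the members, 3 were higher and 0 lower in experienced mice and 3 were higher and 4 lower in naive mice, with medians of -0.39 and -0.19. The same shares over all tested genes apply here and to each list that follows, 4.52% and 8.26% in experienced and 9.81% and 11.9% in naive mice. Leaving out 1 library at a time gave 1 to 4 higher in experienced mice. Without the 4 libraries apart 5 were higher and 4 lower there, Tbxa2r and Esam (edgeR adjusted p = 0.00385 and 0.0168) among the lower ones. In that setting 2518 of 15840 genes were higher and 2488 lower in experienced mice. F2r, P2ry1 and Cd9 were higher in both, where F2r encodes a thrombin receptor and P2ry1 an ADP receptor. P2ry1 had log2 fold changes of 1.05 (SE 0.30, edgeR adjusted p = 0.0293) and 1.75 (SE 0.30, edgeR adjusted p = 0.000982) in experienced and naive mice, and its call in experienced mice was lost without experienced LPS replicate 4, experienced PBS replicate 1 or experienced PBS replicate 2 (edgeR adjusted p = 0.0568 to 0.0965). In naive mice Itga2, P2rx1, Tbxa2r and Esam were lower. Tbxa2r, the thromboxane receptor gene, stood at -1.01 in experienced mice and -2.82 in naive mice (edgeR adjusted p = 0.184 and 0.0014), and Esam, which encodes an endothelial and stem cell adhesion molecule, at -0.37 in experienced and -1.57 in naive mice (edgeR adjusted p = 0.514 and 0.0041).

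Of 14 megakaryocyte transcription factor genes, Gata2 was higher and Mrtfa lower in experienced mice, while Gata1, Gata2, Zfpm1 and Gfi1b were higher and Etv6, Meis1 and Mrtfa lower in naive mice. Gata2, which acts in stem cells and early megakaryocytes, had log2 fold changes of 0.61 (SE 0.17, edgeR adjusted p = 0.0264) and 0.83 (SE 0.17, edgeR adjusted p = 0.00316) in experienced and naive mice. Its call in experienced mice was lost without experienced LPS replicate 3, experienced PBS replicate 1 or experienced PBS replicate 3 (edgeR adjusted p = 0.0643 to 0.0878). Gata1, the erythroid and megakaryocytic factor, stood at 0.60 (SE 0.47, edgeR adjusted p = 0.439) in experienced mice and rose by 2.25 (SE 0.48, edgeR adjusted p = 0.00411) in naive mice. Without experienced PBS replicate 4 its experienced value was 1.32 (edgeR adjusted p = 0.0441), and without the 4 libraries apart 2.03 (edgeR adjusted p = 0.00107). The call of Gfi1b in naive mice, 1.54 (SE 0.42, edgeR adjusted p = 0.0178), was lost without naive LPS replicate 1 (edgeR adjusted p = 0.0517). Nfe2 and Fli1, which drive late megakaryocyte genes, did not pass in either, at -0.27 (0.381) and -0.23 (0.416) for Nfe2 and 0.09 (0.854) and 0.24 (0.531) for Fli1, given as log2 fold change with the edgeR adjusted p in brackets for experienced and naive mice.

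Of 14 platelet granule genes, Serpine2, Timp3 and Rab27b were higher and Nbeal2 lower in experienced mice, and Serpine2 was higher and Mmrn1 and Nbeal2 lower in naive mice. Serpine2, which encodes a thrombin inhibitor, rose by 2.72 (SE 0.44, edgeR adjusted p = 0.000849) and 1.94 (SE 0.42, edgeR adjusted p = 0.00478) in experienced and naive mice. Nbeal2, which is needed to form alpha granules, stood at -0.74 (SE 0.22, edgeR adjusted p = 0.0351) in experienced mice and -1.03 (SE 0.22, edgeR adjusted p = 0.004) in naive mice. The call in experienced mice was lost without any one of experienced LPS replicates 2, 3 and 4, experienced PBS replicates 1 and 2 and naive PBS replicates 1 and 4 (edgeR adjusted p = 0.0538 to 0.127). The call of Timp3 was lost without experienced PBS replicate 1 or 2 (edgeR adjusted p = 0.0551 to 0.0666), and that of Mmrn1 without any one of naive LPS replicates 1, 3 and 4 and naive PBS replicates 1, 2 and 4 (edgeR adjusted p = 0.0581 to 0.0929).

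Among 12 tested genes of platelet formation and the cytoskeleton, Rap1b, a small GTPase that activates the fibrinogen receptor, was higher in both, by 0.88 (SE 0.25, edgeR adjusted p = 0.0296) in experienced and 0.79 (SE 0.25, edgeR adjusted p = 0.0341) in naive mice. Its call was lost without experienced LPS replicate 1 or 2 or experienced PBS replicate 1 or 2 in experienced mice (edgeR adjusted p = 0.0534 to 0.0994) and without naive LPS replicate 2 or any one of the 4 naive PBS libraries in naive mice (edgeR adjusted p = 0.0563 to 0.121). Actn1, Tpm4, Zyx and Rasgrp2 were lower in naive mice. In experienced mice 0 were lower, and 3 were without the 4 libraries apart, where 2488 of 15840 genes were lower. Tpm4, a tropomyosin gene, stood at -0.97 (SE 0.31, edgeR adjusted p = 0.0512) in experienced mice, and was called there without naive LPS replicate 2, naive LPS replicate 4 or experienced PBS replicate 4 (edgeR adjusted p = 0.0149 to 0.0361), as well as without the 4 libraries apart (edgeR adjusted p = 0.00169). Zyx, which encodes an actin-binding protein of adhesion sites, stood at -0.38 (SE 0.19, edgeR adjusted p = 0.201) in experienced mice and -1.03 (SE 0.19, edgeR adjusted p = 0.00151) in naive mice. Without the 4 libraries apart its experienced value was -0.51 (edgeR adjusted p = 0.00302). Of 11 genes of platelet signalling and prostanoid synthesis 0 were called in experienced mice, and Ptgs1 and Tbxas1, whose enzymes make thromboxane, were lower in naive mice, at -0.64 (0.0287) and -0.68 (0.0123) on the log2 scale with the edgeR adjusted p in brackets. In experienced mice Tbxas1 stood at -0.49 (SE 0.18, edgeR adjusted p = 0.0749), and was called without experienced PBS replicate 4 (edgeR adjusted p = 0.0276). Without the 4 libraries apart 2 genes of the list were lower in experienced mice, where 2488 of 15840 genes were. The call of Ptgs1 was lost without any one of naive LPS replicates 1, 2 and 3 and naive PBS replicates 1, 2 and 4 (edgeR adjusted p = 0.0676 to 0.0804). Of 7 integrin and selectin partners, Itga6 was higher in experienced mice, by 0.62 (SE 0.14, edgeR adjusted p = 0.00851), and Itgb5 and Selplg were lower in naive mice, at -1.43 (0.00953) and -0.54 (0.00828) in the same form.

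Of 12 genes of stem cells and platelet-biased stem cells, 7 were lower and 0 higher in experienced mice and 7 were lower and 0 higher in naive mice, with medians of -1.77 and -1.65: Procr, Hlf, Mecom, Fgd5, Cdkn1c, Gata3 and Flt3 in both. The shares over all tested genes were 8.26% lower and 4.52% higher in experienced mice and 11.9% lower and 9.81% higher in naive mice. The other 5 genes of the list were not called in either, and leaving out 1 library at a time gave 5 to 9 lower in experienced and 7 to 8 lower in naive mice. Mecom, which encodes a transcription factor that maintains stem cells, stood at -1.84 (SE 0.20, edgeR adjusted p = 4.64e-05) in experienced and -2.03 (SE 0.20, edgeR adjusted p = 1.11e-05) in naive mice. Hlf, another factor of stem cells, averaged 24.1 ± 11.2 TPM in experienced LPS, against 107 ± 14.6 TPM in experienced PBS, and 22.0 ± 8.45 TPM in naive LPS, against 125 ± 19.9 TPM in naive PBS. Flt3, counted among the 7, is the receptor gene of multipotent progenitors and not a stem cell marker, so the list is mixed. It stood at -1.98 (SE 0.31, edgeR adjusted p = 0.000705) in experienced and -2.77 (SE 0.32, edgeR adjusted p = 3.67e-05) in naive mice.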

How the data were processed

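RNA was sequenced from sorted marrow HSPCs in 16 libraries, 4 per group, each with 1 table. The labels list 2 technical replicates per biological replicate. The sources used here state neither their merging, nor the strand setting, nor the release of the annotation. The library kit named in the labels' protocols is a droplet kit for single cells, although the tables are bulk. Per the submitters' processing notes, the tools were Trim Galore 0.6.7 for trimming, STAR 2.7.10a for alignment to GRCm38, and RSEM 1.3.1 for quantification. The authors deposited expected counts, which RSEM estimates per gene and which need not be whole, and TPM, which RSEM scales by effective gene length. TPM depend on RSEM's mean transcript length, which differed between libraries, so differences were tested on counts.

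Of 45706 gene identifiers, 45143 matched GENCODE vM21 or the name table. Expected counts were rounded and tested with edgeR 4.0.16 in R 4.3.3 (TMM scaling, filterByExpr, quasi-likelihood test, all 16 libraries, 1 mean per group), which kept 15186 genes and 99.9% of the counts. P-values were adjusted by Benjamini-Hochberg over all tested genes, with 0.05 as the threshold. The common biological coefficient of variation was 0.306. The same code was also run on simulated data, whose outcome is not given here. The simulation gave each gene the same spread in all libraries, so it did not copy the libraries apart. DESeq2 1.42.0 and limma 3.58.1 on log2(TPM + 1) were alternatives. Replicate numbers were not taken as pairs, since only 4 of 24 pairs of same-numbered libraries had a correlation of deviations over 0.1 (-0.22 to 0.32). In experienced LPS with experienced PBS, 3 of the 4 numbers did (0.175, 0.222 and 0.321) and replicate 3 did not (-0.123).

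The 9 genes and the pathway and marker lists were chosen with earlier results of these data known. Named genes were the 9, 11 fixed by name, up to 4 called members of each list with the lowest adjusted p, and the 3 genes of highest r with each member. Sept5 was named because it overlaps Gp1bb. Leaving out the 4 libraries apart was chosen after seeing the data. The genes of 1 list, of growth receptor and cytokine signalling, enter the pooled counts and are not reported singly here.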

Additional observations from a re-analysis of the deposited data

Results flagged for a closer look

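Selp in naive LPS replicate 2 stood far from the rest of its group, at 171 CPM against 89.6, 99.4 and 103 CPM in the other 3 replicates. The gap to the nearest was 0.84 of the group's range, above Dixon's 95% critical value of 0.829 for 4 samples. It was 1 of 32 groups of values examined, and chance alone marks about 1 in 20. The same library had a mean correlation with its own group of 0.936 and a short mean transcript length of Actb and of Selp, and their part in the Selp value was not tested.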

How the results depend on the processing

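Itga2b, Itgb3, Gp1bb and Gp5 stayed called higher after LPS in experienced mice under all 28 alternatives, and Itga2b and Itgb3 in naive mice too. The number higher in naive mice, 4, was 2 with limma on log2(TPM + 1), 2 on log2(TPM + 0.1) and 2 on log2(TPM + 1) with no filter, where Gp1bb and Gp5 were lost. Their adjusted p with limma was 0.0885, 0.105 and 0.162 for Gp1bb and 0.139, 0.138 and 0.173 for Gp5. Without the 4 libraries apart, 1 gene, Selp, was lower in naive mice, and 1, Selp, was higher in experienced than in naive mice after LPS. Leaving out each library in turn gave 4 to 6 higher in experienced mice, 4 higher in naive mice, and 0 to 1 lower in naive mice, the 1 being Selp without naive LPS replicate 2. With the replicate number as a block, 4 members were higher in experienced and 4 in naive mice, as in the main comparison, and among all genes 540 were higher and 1052 lower in experienced mice, against 686 and 1254 without the block. Of 3284 values of single genes under alternatives, 3143 kept their call, 89 lost a call and 52 gained one. These values include members compared between experienced and naive mice, where edgeR called 0 of 15186 genes, so no call could be lost there. They also include fits that left out a library of a group outside the comparison. The share kept is therefore no measure of how stable the LPS calls are. In 0 did the direction reverse where either value was called. Values not called could change sign and still count as kept, as for Selp after LPS in experienced mice (log2 0.07, and -0.15 without the 4 libraries apart). Of 896 counts of list members called, 120 moved beyond 1.5 times. The cause was not tested. Of the members, Gp1bb had 26.3 to 213.6 expected counts per library, Gp9 18 to 169, and Gp6 at most 1.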
